A study of Homo sapiens with 12 samples.

Results

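The difference between the responses of 22RV1 cells to 2 siRNAs, one directed at ETS1 and one at ZNF783, was measured gene by gene. 22RV1 is a human prostate cancer cell line that was grown in RPMI-1640 with serum. All 12 of the 12 libraries of the series entered the comparison, 3 in each of 4 groups: ETS1 siRNA, the controls of the ETS1 knockdown, ZNF783 siRNA and the controls of the ZNF783 knockdown. The quantity described is the log2 change with ZNF783 siRNA against its own controls minus the log2 change with ETS1 siRNA against its own controls, and it could be tested for 19594 of the 61860 genes counted. A difference below 0 thus means that a gene stood lower after ZNF783 siRNA, relative to its controls, than after ETS1 siRNA, relative to its controls. The 2 effects share no control library, and each siRNA was used in 1 experiment only, so the siRNA and its experiment cannot be told apart except through each experiment's own controls. The series is concerned with phosphorylated RB, ETS1 and sensitivity to CDK4/6 inhibitors, but none of these libraries is labelled as treated with an inhibitor. The siRNA sequences, doses and harvest times are not given in the sources used here, and all libraries come from this 1 cell line.

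An siRNA is a short double-stranded RNA that Argonaute proteins load and use to cut a matching messenger RNA. ETS1 is a transcription factor whose DNA-binding domain recognises sites with a GGAA core. ZNF783 belongs to the zinc finger proteins, many of which carry a KRAB domain and silence chromatin. The endoplasmic reticulum (ER) folds secreted and membrane proteins with chaperones such as HSPA5. When unfolded proteins accumulate there, the unfolded protein response raises those chaperones through ATF6 and XBP1, which act at ER stress response elements in their promoters, while the PERK branch acts through ATF4 on amino acid supply.

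Library totals ran from 13518177 to 48996691 counts, so the floor of 3 counts lay between 0.0612 and 0.222 CPM, the counts scaled to a common library size. ETS1 siRNA replicate 1 stood apart: its median absolute log2 distance from the other libraries of its group was 0.224 over 10386 genes, against 0.111 and 0.121 for the other ETS1 siRNA libraries and 0.0384 to 0.0556 for the remaining 9. Each result is therefore given with all 12 libraries and with the 11 left without it. ETS1 itself had 0 to 3 counts in every library, controls included, which is at or under the floor, so its knockdown could not be measured and no fold is given. ZNF783 changed by -0.31 with its own siRNA and by -0.23 with ETS1 siRNA in the 11-library fit, and its difference passed in neither fit (0.05, SE 0.16, adjusted p = 0.925 with 12 libraries and -0.08, SE 0.077, adjusted p = 0.554 with 11). The 2 siRNAs were thus not shown to differ in what they did to ZNF783. The 10 luminal prostate markers looked up, KLK3 among them, were counted in every group and summed to between 4029 and 4353 CPM per library. Of 20 leukocyte, endothelial and fibroblast markers 18 had a count in each group and CD3E was at 0 everywhere, and their sum was 65.2 to 75.9 CPM with ETS1 siRNA, 63.6 to 66.8 in its controls, 42.9 to 46.1 with ZNF783 siRNA and 49.4 to 52.6 in its controls. Their part in the results was not tested. In bulk libraries fewer cells of a type and less RNA per cell cannot be told apart. Whether the replicates of a group are separate cultures is not in the labels, so every p-value reflects the spread of these particular libraries and that spread may be purely technical.

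The promoters of a pair of genes that open the results are shown here because a known element lies in each. HSPA5 encodes BiP, the main chaperone of the ER lumen, and DIO2 encodes the deiodinase that makes active thyroid hormone. Both sequences are RefSeq on GRCh38.p14, read 5′ to 3′ on the strand of the gene (minus). The HSPA5 stretch is chr9:125241344-125241593, the 250 bases before the gene's start, with an ER stress response element (ERSE) in capitals at its fixed letters. The DIO2 stretch is chr14:80212225-80212324, which lies 146 to 47 bases before one of the transcript starts that the RefSeq table gives for DIO2 and inside the longer GENCODE gene span given below, with a cyclic AMP response element (CRE) in capitals.
HSPA5: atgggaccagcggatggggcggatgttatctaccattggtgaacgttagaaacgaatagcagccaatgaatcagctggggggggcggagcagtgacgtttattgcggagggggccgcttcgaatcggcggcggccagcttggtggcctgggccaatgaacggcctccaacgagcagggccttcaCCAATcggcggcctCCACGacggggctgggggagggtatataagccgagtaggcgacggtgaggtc
DIO2: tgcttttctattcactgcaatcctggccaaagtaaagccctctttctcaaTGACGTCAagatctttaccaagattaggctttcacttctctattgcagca
The DIO2 match came from a search made after the values were seen, in which 5 patterns were looked for in 29 genes and the CRE was found in 1 of them. Over the 250 bases before the start of 35116 promoters, both strands read, CRE (TGACGTCA) was present in 1.65% and ERSE (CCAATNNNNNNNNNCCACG) in 0.074%. A match is a description of letters and does not show that a factor binds there.

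With all 12 libraries 330 of 19594 genes (1.68%) differed between the siRNAs by edgeR's quasi-likelihood test at an adjusted p below 0.05. The difference was above 0 for 113 (0.577%) and below 0 for 217 (1.11%). Without ETS1 siRNA replicate 1 the count was 2735 of 20018 (13.7%), of which 1484 (7.41%) were above 0 and 1251 (6.25%) below. With scaling by library size alone the split of the latter turned to 1180 above and 1519 below, and with upper-quartile scaling to 1307 and 1339. Leaving out any single ZNF783 library as well also turned it, to 43.5% to 46.1% of calls above 0 from 54.3%. The 2 fits shared 328 genes, all called in the same direction in both, 112 above 0 and 216 below. GULP1, an engulfment adaptor, was one of the 2 genes that lost the call (-0.59, adjusted p = 0.0401 with 12 libraries, -0.47, adjusted p = 0.0539 with 11). A difference of 2-fold or more was called for 23 genes with 12 libraries, for 107 with 11, and for 18 in both fits. The larger count came with a smaller spread: the biological coefficient of variation was 0.0795 with 12 libraries and 0.0252 with 11. The 12-library count also fell to between 140 and 178 when any one of the 9 libraries outside the ETS1 siRNA group was left out.

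Each effect was also tested against its own controls inside the same fits. The change with ZNF783 siRNA passed for 4.21% of the genes tested with 12 libraries and 22% with 11. With ETS1 siRNA it passed for 9.57% and 22.7%. The ZNF783 libraries were the same in both fits, but the spread behind each p-value was estimated over all groups of a fit. The biological coefficient of variation was 0.0795 with 12 libraries and 0.0252 with 11. In the ZNF783 libraries alone it was 0.0237 and in the ETS1 libraries alone 0.107. The patterns below rest on these calls. Sorted by the 11-library effects, the 328 genes fell into 89 that fell with ZNF783 siRNA and rose with ETS1 siRNA, 52 that rose with ZNF783 siRNA and fell with ETS1 siRNA, 92 whose change passed with ZNF783 siRNA alone, 81 whose change passed with ETS1 siRNA alone, and 14 that moved the same way by unequal amounts. Sorted by the 12-library effects, the 330 genes held 29 and 13 of the opposite kinds, 121 and 154 passing with 1 siRNA alone, 3 moving the same way and 10 for which neither effect passed. Across 15935 genes averaging at least 1 CPM the 2 effects had a Pearson correlation of 0.255 with 12 libraries and 0.198 with 11, given as a description across genes that come from the same libraries.

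**Figure D1:**
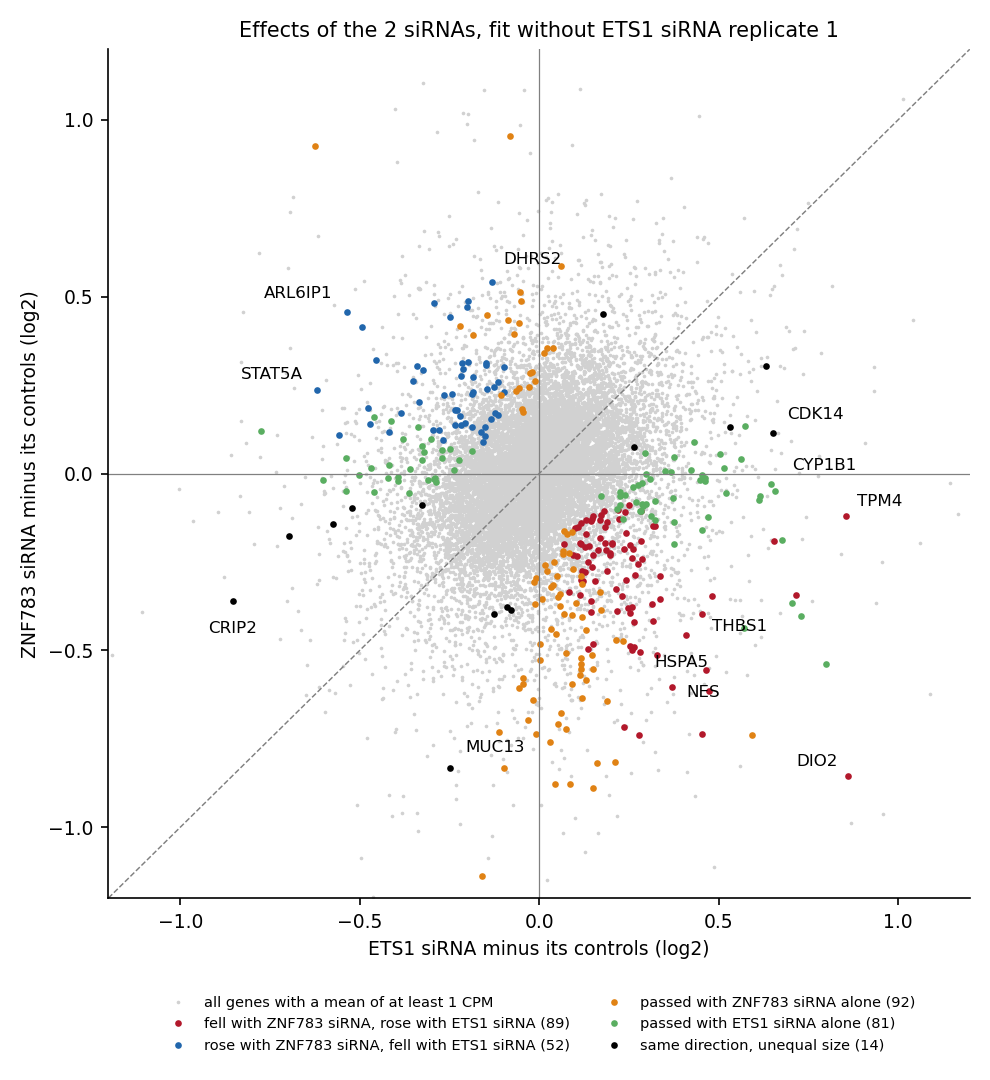
Log2 effect of ETS1 siRNA (x axis) and of ZNF783 siRNA (y axis), each against its own controls, in the fit without ETS1 siRNA replicate 1. Grey points are genes averaging at least 1 CPM, coloured points the 328 genes called in both fits by pattern, and the dashed line marks equal effects; 23 genes, 5 of them coloured, lie outside the axes. The 89 and the 52 genes with opposite effects fill the lower right and the upper left quadrant.

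The genes with opposite effects were sorted by both effects in these same libraries, which largely fixes that their groups are apart, so the following is a description. For 129 of the 141 the siRNA and control libraries did not overlap in either experiment, all 12 libraries included. Over all 19594 genes tested this held for 3151 (16.1%), and for 615 (3.1%) with opposite directions in the 2 experiments. The controls of the 2 experiments also differed in level: among the 89, the ZNF783 controls stood above the ETS1 controls in 68 (median log2 ratio 0.214) and the ZNF783 siRNA group stood below the ETS1 siRNA group in 65 (median -0.267). For 42 of the 89 the controls were further apart than the siRNA groups. Among the 52 the ZNF783 controls were the lower in 44 (median -0.25), and the siRNA group was the higher in 36 (median 0.212). How far the unequal control levels bear on the opposite effects was not tested.

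DIO2 (chromosome 14, 80197527 to 80387757) had the largest difference below 0 among the genes eligible to be named. It measured 10.5, 10.7 and 10.4 CPM in the ETS1 controls and 23.0, 19.5 and 18.9 with ETS1 siRNA. It measured 19.9, 20.7 and 22.4 CPM in the ZNF783 controls and 11.6, 11.5 and 11.4 with ZNF783 siRNA. ETS1 siRNA replicates and ZNF783 controls were thus high and the other 6 libraries low, with no overlap within either experiment. The log2 difference was -1.82 (SE 0.12, adjusted p = 1.76e-05) with 12 libraries and -1.72 (SE 0.097, adjusted p = 1.52e-19) with 11, made of -0.86 with ZNF783 siRNA and 0.86 with ETS1 siRNA. An annotated gene on the opposite strand overlaps DIO2, and counting used no strand option, so its values are uncertain to that extent. The same holds for TPM4, THBS1, HABP4, HYOU1, CYP1B1, MIR924HG, MESD, TUBA4A, SLC7A11, SLC7A5, PRSS8, PAK6, REXO5, CCND1, CDKN1A, ID2, ITGA5, TPI1, SESN1, PER3, CRY1, CDK4, CDK6, HMGCS1 and RPL4 below. ARL6IP1, ARL2, MAPK4, MCL1, PFKFB4, ZNF616, ZNF783, CYP1B1, MESD, PAK6 and RPL4 overlap an annotated gene on their own strand, with which reads may be shared.

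HSPA5 (chromosome 9, 125234853 to 125241330), whose promoter is printed above, was among the most abundant of the genes called. It measured 1178, 1175 and 1136 CPM in the ETS1 controls and 1283, 1413 and 1426 with ETS1 siRNA. It measured 1162, 1167 and 1185 CPM in the ZNF783 controls and 818, 816 and 821 with ZNF783 siRNA. The controls of both experiments lay at one level, and the siRNA groups lay on opposite sides of it. The difference was -0.76 (SE 0.059, adjusted p = 6.44e-05) with 12 libraries and -0.79 (SE 0.033, adjusted p = 6.46e-25) with 11, from -0.51 with ZNF783 siRNA and 0.28 with ETS1 siRNA.

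TPM4, a tropomyosin that lies along actin filaments, measured 169, 173 and 164 CPM in the ETS1 controls, 409, 313 and 301 with ETS1 siRNA, 293, 297 and 295 in the ZNF783 controls and 265, 270 and 275 with ZNF783 siRNA. The groups did not overlap in either experiment, and ETS1 siRNA replicate 1 was the highest of all. The difference was -1.14 (SE 0.12, adjusted p = 0.000989) with 12 libraries and -0.98 (SE 0.039, adjusted p = 2.01e-25) with 11, most of it from ETS1 siRNA (0.86, against -0.12 with ZNF783 siRNA). THBS1, the secreted matrix glycoprotein thrombospondin-1, measured 89.1, 84.8 and 85.2 CPM in the ETS1 controls, 121, 118 and 119 with ETS1 siRNA, 127, 135 and 131 in the ZNF783 controls and 99.8, 101 and 95.0 with ZNF783 siRNA. Its groups were apart in both experiments, and its difference was -0.88 (SE 0.061, adjusted p = 2.56e-05) and -0.85 (SE 0.047, adjusted p = 6.16e-20). NES, the intermediate filament protein nestin, differed by -0.89 and -0.97 with 12 and 11 libraries. Its level with ETS1 siRNA was 40.4, 51.3 and 51.6 CPM against 37.5, 40.5 and 40.6 in the controls, so replicate 1 lay within the control range.

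The other genes with the lowest differences have varied functions. BCHE, butyrylcholinesterase, differed by -0.94 with 12 libraries and -0.86 with 11. SEMA6B, a transmembrane semaphorin, differed by -0.88 and -0.96, and MAPK4, an atypical MAP kinase, by -0.81 and -0.75. HABP4, an RNA-binding protein, differed by -0.80 and -0.85, of which 0.66 was the rise with ETS1 siRNA. AGR2, a disulfide isomerase of the ER, differed by -0.74 in each fit, with 41.7, 41.5 and 40.9 CPM after ZNF783 siRNA against 59.7, 58.5 and 57.5 in the controls. All of them passed in both fits and fell with ZNF783 siRNA while rising with ETS1 siRNA in the 11-library fit.

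ARL6IP1 (chromosome 16, 18791667 to 18801678), a protein that shapes ER membranes, had the largest difference above 0 among the genes eligible to be named. It measured 409, 402 and 380 CPM in the ETS1 controls and 224, 279 and 271 with ETS1 siRNA. It measured 322, 304 and 328 CPM in the ZNF783 controls and 434, 430 and 435 with ZNF783 siRNA. The groups were apart in both experiments, in opposite directions, and the ETS1 controls lay above the ZNF783 controls. The difference was 1.07 (SE 0.097, adjusted p = 0.000182) with 12 libraries and 0.99 (SE 0.042, adjusted p = 2.91e-22) with 11, from 0.46 with ZNF783 siRNA and -0.54 with ETS1 siRNA.

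STAT5A, a transcription factor of cytokine and prolactin signalling, measured 14.4, 12.4 and 13.3 CPM in the ETS1 controls, 7.18, 8.63 and 8.88 with ETS1 siRNA, 14.2, 13.8 and 13.4 in the ZNF783 controls and 14.7, 17.6 and 16.2 with ZNF783 siRNA. Its controls overlapped between the experiments, and the fall with ETS1 siRNA made up most of the difference of 0.92 (SE 0.14, adjusted p = 0.00506) with 12 and 0.86 (SE 0.11, adjusted p = 7.93e-08) with 11 libraries. CROT, which exports shortened fatty acids from peroxisomes as carnitine esters, differed by 0.75 and 0.69. It rose from 138, 134 and 140 to 193, 186 and 195 CPM with ZNF783 siRNA, and stood at 128, 151 and 158 with ETS1 siRNA against 178, 183 and 169 in those controls. DHRS2, a short-chain dehydrogenase, differed by 0.68 and 0.67, although its control levels were 185 to 194 CPM in the ETS1 experiment and 33.0 to 35.1 in the ZNF783 experiment. NRN1, neuritin, differed by 0.82 and 0.78, and ZBTB34, a BTB zinc finger factor, by 0.80 and 0.78. REXO5, an RNA exonuclease, PAK6, a p21-activated kinase, and PRSS8, the serine protease prostasin, each differed by 0.71 with 12 libraries and by 0.67, 0.67 and 0.66 with 11. SPATA18, a p53 target that acts on mitochondria, differed by 0.62 and 0.64.

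**Figure D2:**
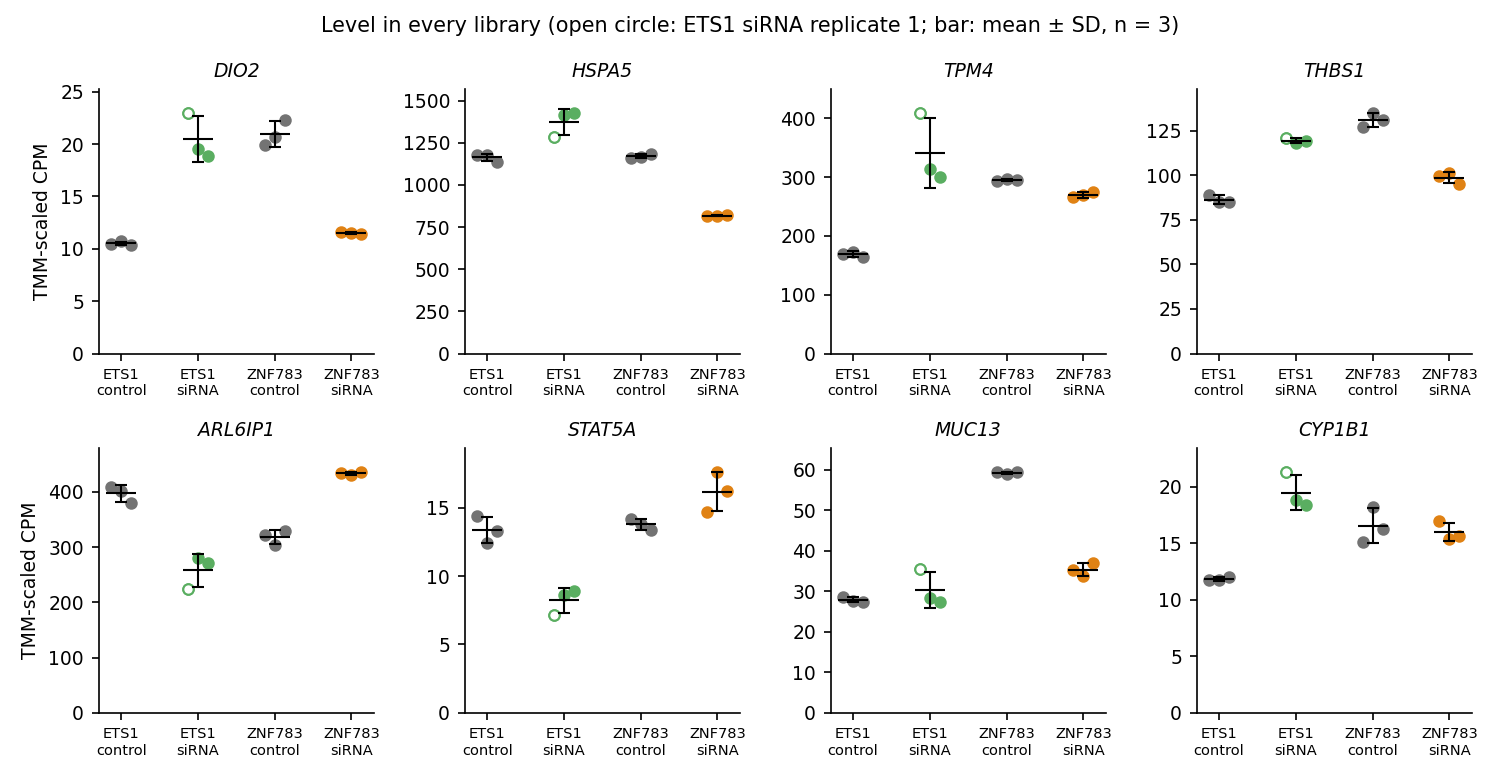
Level of 8 genes in each library, in TMM-scaled CPM on linear axes from 0, for the 4 groups; the open circle is ETS1 siRNA replicate 1, and bars give the mean ± SD with n = 3. DIO2, HSPA5, TPM4 and THBS1 were higher with ETS1 siRNA and lower with ZNF783 siRNA than in their own controls, ARL6IP1 and STAT5A the reverse, MUC13 fell with ZNF783 siRNA and CYP1B1 rose with ETS1 siRNA.

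Chaperones and folding enzymes of the ER were the list whose members most often differed. Of 32 members, 12 passed below 0 with 12 libraries (37.5%) and 21 with 11 (65.6%), and 0 passed above 0 in either fit. The median difference was -0.307 with 12 and -0.239 with 11 libraries, against -0.01 and 0.012 over all genes tested. In each fit 31 of the 32 differences were below 0, against 10118 of 19594 over all genes with 12 libraries and 9559 of 20018 with 11. Against their own controls in the 11-library fit, 20 members fell with ZNF783 siRNA and 16 rose with ETS1 siRNA, 11 of them doing both. Over all genes tested in that fit 11.9% fell with ZNF783 siRNA and 9.61% rose with ETS1 siRNA. A called difference with called opposite effects, in either direction, was found for 311 of 20018 genes. With 12 libraries 8 members fell and 8 rose, against 2.69% and 4.98% of all genes.

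The members can be ordered by their place in the folding pathway. Among the chaperones and their partners after HSPA5, HYOU1, which serves as its nucleotide exchange factor, differed by -0.69 with 12 and -0.63 with 11 libraries, DNAJC3, a co-chaperone, by -0.50 in both, and DNAJB11, another co-chaperone, by -0.47 and -0.41. MANF, which binds HSPA5 and is secreted under ER stress, differed by -0.63 and -0.69. The lectin chaperone CALR differed by -0.31 and -0.26, while its membrane-bound relative CANX did not pass (-0.03 and 0.02). HSP90B1, the HSP90 of the ER, passed with 11 libraries alone (-0.30, adjusted p = 0.0509 and -0.21, adjusted p = 4.12e-06). Of the disulfide isomerases, PDIA4 differed by -0.58 and -0.63, PDIA6 by -0.37 and -0.38 and PDIA3 by -0.38 and -0.30, and P4HB passed with 11 libraries alone (-0.07 and -0.13). ERO1A, the oxidase that recharges them, differed by -0.47 and -0.34 through its rise of 0.43 with ETS1 siRNA. HERPUD1 and SEL1L, which serve in the removal of misfolded proteins from the ER, differed by -0.46 and -0.51 and by -0.37 and -0.29. SDF2L1, CRELD2, SELENOK, SEC61B, DNAJC10, EDEM1 and SYVN1 passed with 11 libraries alone. XBP1, the transcription factor of the response, did not pass (-0.05 in both fits), nor did ERP44, ERO1B, WFS1, SIL1, SERP1, DNAJB9, SDF2, CRELD1 and TXNDC5. Beside HYOU1, an opposite-strand gene overlaps DNAJB11, PDIA6, PDIA3, CALR, HSP90B1, P4HB, ERO1A, CRELD2, EDEM1, SYVN1, CANX, SIL1, SERP1, DNAJB9 and SDF2, so their values carry the same uncertainty, while HSPA5, PDIA4, DNAJC3, MANF, HERPUD1 and SEL1L have no such overlap.

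**Figure D3:**
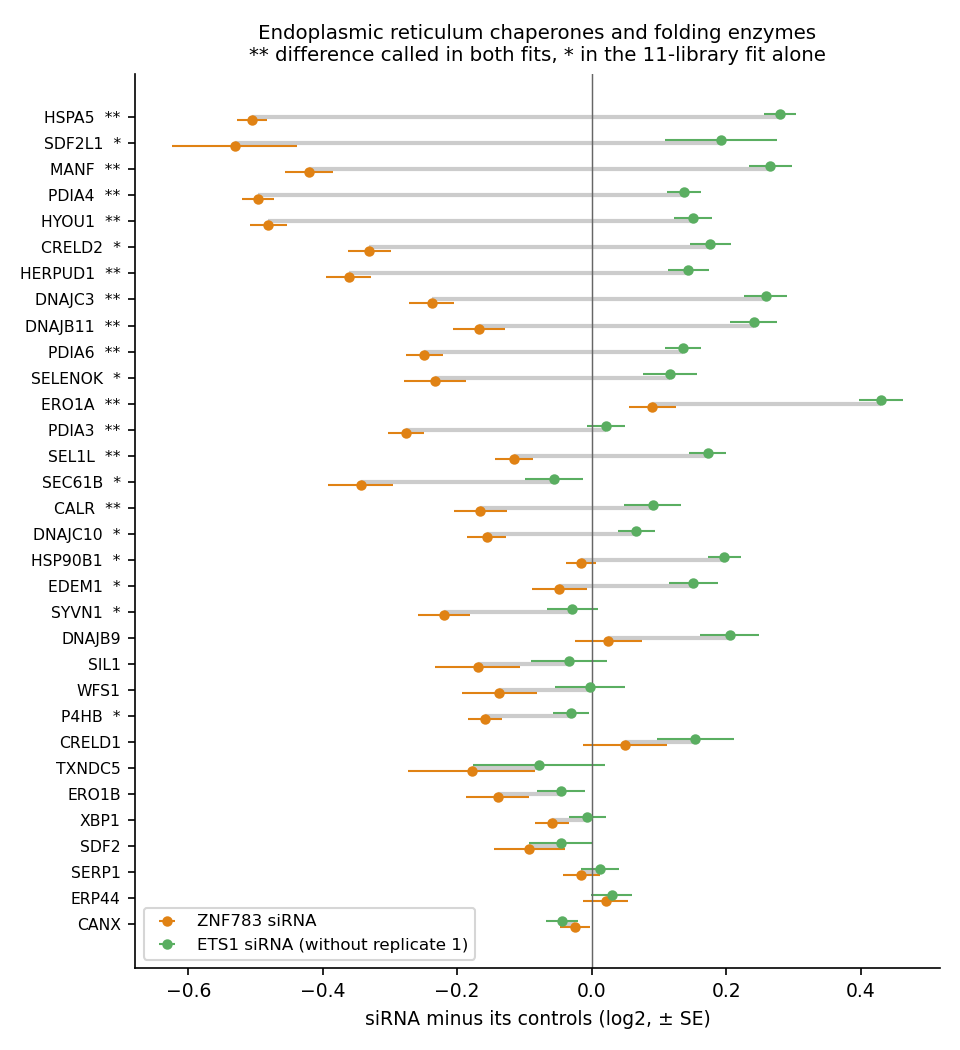
Effect of ETS1 siRNA and of ZNF783 siRNA, each against its own controls, on the 32 ER chaperones and folding enzymes, as log2 effect ± SE in the 11-library fit. Genes marked with 2 stars differed between the siRNAs in both fits (12 genes) and those with 1 star in the 11-library fit alone; the 2 effects lie on opposite sides of 0 for HSPA5, HYOU1, PDIA4 and MANF.

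The element printed for HSPA5 was then looked for across the list, because the members that differed and those that did not can be compared by it. A promoter was found in the RefSeq table for 31 of the 32 members, PDIA3 being the exception. ERSE was present in 9 (29%), and ERSE-II (ATTGGNCCACG), a second element of the same response, in 3 (9.7%), against 0.074% and 0.0513% of all 35116 promoters. A member counted if any of its promoters matched, and counted by symbol 25 and 18 of 27305 held ERSE and ERSE-II. The list holds chaperones that the unfolded protein response raises through these elements. Its higher share thus describes the list and is not a result of these libraries. The matches shown next, on GRCh38.p14, come from members that passed below 0 in both fits, with 1 element per gene and its fixed letters in capitals, and 2 from members that passed in neither, CANX and XBP1.
PDIA6, chr2:10812853-10812871 (minus): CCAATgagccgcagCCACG
CALR, chr19:12938384-12938402 (minus): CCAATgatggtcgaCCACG
HYOU1, chr11:119057274-119057284 (plus): ATTGGaCCACG
HERPUD1, chr16:56932025-56932035 (plus): ATTGGgCCACG
CANX, chr5:179698778-179698796 (plus): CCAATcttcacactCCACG
XBP1, chr22:28800603-28800621 (minus): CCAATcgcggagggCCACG
Of the 12 members with either element, 5 passed below 0 with 12 libraries and 8 with 11. Of the 19 without, 6 and 12 did. Members that differed were thus found with and without an element, and a missing match says only that these letters are not within the 250 bases read.

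ATF4 targets, amino acid carriers and tRNA synthetases also lay mostly below 0, and whether the PERK branch had a part in this was not tested. Of 38, 3 passed below 0 and 0 above 0 with 12 libraries (7.89%, median -0.078), and 17 below and 1 above with 11 (47.4%, median -0.112). SLC7A5, the large neutral amino acid carrier, differed by -0.36 in both fits and fell with ZNF783 siRNA (-0.35), with 0.01 after ETS1 siRNA. SLC7A11, the cystine carrier, differed by -0.65 and -0.58 and instead rose with ETS1 siRNA (0.52), with -0.06 after ZNF783 siRNA. SLC7A1, a cationic amino acid carrier, differed by -0.27 and -0.25 with both effects called. PSAT1, an enzyme of serine synthesis, passed with 11 libraries alone (-0.34, adjusted p = 0.0673 and -0.40, adjusted p = 4.2e-12).

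A further group passed with ZNF783 siRNA alone. MUC13, a membrane mucin, measured 59.4, 59.0 and 59.4 CPM in the ZNF783 controls and 35.4, 33.9 and 36.9 with ZNF783 siRNA, and 28.6, 27.7 and 27.4 CPM in the ETS1 controls and 35.5, 28.3 and 27.2 with ETS1 siRNA. The ZNF783 groups were apart, the ETS1 groups overlapped, and the ZNF783 controls stood above every library of the ETS1 experiment. The difference was -0.86 (SE 0.12, adjusted p = 0.00319) with 12 and -0.73 (SE 0.066, adjusted p = 4.1e-12) with 11 libraries. MISP, which anchors the mitotic spindle to the cell cortex, differed by -0.68 and -0.75, MFSD2A, a lysophospholipid carrier, by -0.70 and -0.74, and NETO1, a kainate receptor partner, by -0.85 and -0.71. PCDH10, a protocadherin, differed by -0.73 and -0.68, and TUBA4A, an alpha-tubulin, by -0.79 and -0.66. ADAMTS1, a secreted protease, fell from 123, 127 and 129 to 80.9, 81.9 and 78.4 CPM with ZNF783 siRNA and differed by -0.58 and -0.62, while its ETS1 effect was -0.02 (SE 0.031).

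Others passed with ETS1 siRNA alone. CYP1B1, a cytochrome P450 that hydroxylates oestrogens and xenobiotics, measured 11.8, 11.7 and 12.01 CPM in the ETS1 controls, 21.3, 18.8 and 18.4 with ETS1 siRNA, 15.2, 18.2 and 16.3 in the ZNF783 controls and 17.0, 15.4 and 15.6 with ZNF783 siRNA. Its ETS1 groups were apart and its ZNF783 groups overlapped. The difference was -0.76 (SE 0.12, adjusted p = 0.00622) with 12 and -0.68 (SE 0.099, adjusted p = 1e-06) with 11 libraries. MIR924HG, a microRNA host transcript, differed by -0.78 and -0.71, and MESD, a chaperone of LDL receptor family proteins, by -0.63 and -0.68. RRAS2, a RAS-related GTPase, and ARL2, a small GTPase of tubulin folding, fell with ETS1 siRNA, with differences of 0.50 and 0.58 and of 0.57 and 0.58. ARL2 measured 22.2, 22.2 and 23.4 CPM with ETS1 siRNA and 36.1, 32.5 and 34.4 in its controls, and 29.7 to 36.1 CPM across the ZNF783 experiment, whose groups overlapped.

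For the 14 genes that moved the same way, the difference was one of size. CRIP2, a LIM domain protein, fell with both siRNAs, by 0.85 with ETS1 siRNA and 0.36 with ZNF783 siRNA on the log2 scale, a difference of 0.56 with 12 and 0.49 with 11 libraries. Its level was 61.3, 75.4 and 73.7 CPM with ETS1 siRNA against 131, 130 and 141, and 153, 154 and 150 with ZNF783 siRNA against 195, 203 and 192. MARCKSL1, an actin-binding protein, fell by 0.70 and 0.17 (difference 0.51 and 0.52). ID2, an inhibitor of basic helix-loop-helix factors, fell by 0.57 and 0.14 (difference 0.36 and 0.43). TPI1, the glycolytic triosephosphate isomerase, fell by 0.52 and 0.10 (difference 0.46 and 0.42). HMGCS1, an early enzyme of cholesterol synthesis, rose more with ZNF783 siRNA (0.45) than with ETS1 siRNA (0.18), a difference of 0.30 and 0.27.

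Genes of the cell cycle were examined because the series concerns RB and CDK4/6. CCND1, the cyclin D1 partner of those kinases, measured 3319, 3236 and 3256 CPM in the ETS1 controls, 2740, 2772 and 2808 with ETS1 siRNA, 3212, 3254 and 3206 in the ZNF783 controls and 3279, 3209 and 3175 with ZNF783 siRNA. It was low in the 3 ETS1 siRNA libraries and level in the other 9, and the difference was 0.24 (SE 0.043, adjusted p = 0.0159) with 12 and 0.25 (SE 0.031, adjusted p = 3.6e-08) with 11 libraries. CDKN1A, the CDK inhibitor p21, likewise fell with ETS1 siRNA (177, 221 and 215 CPM against 285, 277 and 293), and differed by 0.44 (adjusted p = 0.0335) and 0.37 (adjusted p = 5.47e-10). Under 23 alternatives to the 12-library fit the call was lost in 7 for CCND1 and in 10 for CDKN1A. Under 22 alternatives to the 11-library fit it was lost in 0 for either gene. E2F1, the transcription factor that RB restrains, passed with 11 libraries alone (-0.30, adjusted p = 0.264 and -0.40, adjusted p = 5.53e-09); ETS1 siRNA replicate 1 stood at 71.8 CPM, below the controls at 85.3 to 89.1, and the other ETS1 siRNA libraries at 96.2 and 95.8, above them. CDK4, CDK6 and RB1 passed in neither fit, and their differences changed sign between the fits for CDK4 (0.16 and -0.03) and RB1 (-0.10 and 0.09). KLK3, which encodes the secreted protease PSA, passed with 11 libraries alone (-0.45, adjusted p = 0.27 and -0.56, adjusted p = 0.000221).

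The gene lists are read against the share called among all genes, 1.68% with 12 libraries and 13.7% with 11. Called genes were also more abundant than the rest, with a median of 67.5 CPM above 0 and 47.5 CPM below 0 in the 11-library fit against 11.7 CPM over all genes tested, and the part of abundance in the list shares was not tested. Of 29 genes of RB, E2F, the D and E cyclins and their inhibitors, 2 passed above 0 and 0 below with 12 libraries, and 5 above and 6 below with 11, shares of 6.9% and 37.9%. Of 46 genes of DNA replication and G1/S, 0 passed with 12 libraries and 16 passed below 0 with 11 (34.8%, median -0.085), among them CDC45, a part of the replicative helicase (-0.31), and CDC6, which loads it (-0.17). Of 39 genes of G2 and mitosis, 1 passed above 0 with 12 libraries, the phosphatase CDC25B (0.32, adjusted p = 0.014), and 13 above and 3 below with 11 (41% in all). Their median changed sign, from -0.027 with 12 libraries to 0.069 with 11, and was 0.001 with 12 libraries and a correction for GC content and length. Of 35 genes of homologous recombination and Fanconi anaemia, 0 passed with 12 libraries and 1 in each direction with 11, a share of 5.71% that lies below that of all genes. Of 27 p53 targets, 4 passed above 0 and 1 below with 12 libraries, and 10 and 1 with 11 (18.5% and 40.7% in all, median 0.194 and 0.159). SESN1, a stress-induced regulator of mTORC1, was called above 0 (0.49 and 0.48) and GDF15, a secreted stress cytokine, below 0 (-0.58 in both fits).

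Ribosomal protein genes lay above 0 almost throughout. Of 73, 71 had a difference above 0 in each fit, against 9476 of 19594 over all genes with 12 libraries and 10459 of 20018 with 11. Their median was 0.307 with 12 and 0.2 with 11 libraries, yet 3 passed with 12 libraries (4.11%) and 30 with 11 (41.1%), all above 0. Against their own controls 51 of the 73 ribosomal protein genes fell with ETS1 siRNA and 9 rose with ZNF783 siRNA in the 11-library fit. Over all genes tested in that fit 13.1% fell with ETS1 siRNA and 10.1% rose with ZNF783 siRNA, and the 9 of 73 lie near the latter share. RPL4 measured 1655, 1741 and 1761 CPM with ETS1 siRNA against 1913, 1883 and 1894, and 1496, 1568 and 1541 with ZNF783 siRNA against 1385, 1377 and 1357, a difference of 0.30 in both fits. Of 52 nuclear-encoded respiratory chain subunits, 1 passed above 0 with 12 libraries and 10 with 11 (1.92% and 19.2%), 0 below, and the median moved from 0.17 to 0.058. Of 31 proteasome subunits, 0 passed with 12 libraries, and 1 passed above and 6 below 0 with 11 (22.6%). Of 33 genes of ribosome biogenesis and MYC targets, 1 passed below 0 with 12 libraries, NOLC1 (-0.43), a nucleolar assembly factor, and 2 above and 4 below with 11 (3.03% and 18.2%).

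Among metabolic lists, glycolysis and hypoxia response genes gave 4 calls above 0 of 33 with 12 libraries, and 14 above and 2 below with 11 (12.1% and 48.5%, median 0.161 and 0.121). PFKFB4, a regulator of glycolytic flux, differed by 0.68 and 0.56 and BNIP3, a mitophagy receptor, by 0.36 and 0.41, both rising with ZNF783 siRNA and falling with ETS1 siRNA. Cholesterol and fatty acid synthesis gave 2 calls above 0 of 32 with 12 libraries, and 7 above and 2 below with 11 (6.25% and 28.1%). INSIG1, which retains the sterol sensor in the ER, differed by 0.37 in both. Autophagy and lysosome genes gave 2 calls above 0 of 35 with 12 libraries, and 10 above and 1 below with 11 (5.71% and 31.4%). CTSA, the lysosomal protective protein cathepsin A, whose exons overlap genes on the opposite strand, differed by 0.36 and 0.42. NRF2 targets gave 1 call above and 2 below of 26 with 12 libraries, and 2 above and 5 below with 11 (11.5% and 26.9%). GCLM, a subunit of the enzyme that opens glutathione synthesis, differed by -0.52 and -0.44, and FTL, ferritin light chain, by 0.34 and 0.33. Cytosolic heat shock chaperones gave 1 call above 0 of 29 with 12 libraries, the chaperonin subunit CCT2 (0.43), and 6 above and 5 below with 11 (3.45% and 37.9%).

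The RNA interference machinery itself was covered by a list of 17 microRNA processing and Argonaute genes. In it 3 passed above 0 with 12 libraries and 7 with 11 (17.6% and 41.2%), and 0 passed below. AGO4, an Argonaute, rose from 51.9, 53.8 and 52.4 to 66.7, 65.9 and 61.6 CPM with ZNF783 siRNA and fell from 63.8, 62.0 and 60.4 to 54.2, 56.0 and 52.4 with ETS1 siRNA, a difference of 0.49 and 0.51. TNRC6A, the scaffold that Argonautes bind, rose from 107, 108 and 108 to 151, 144 and 154 CPM with ZNF783 siRNA, and overlapped between the ETS1 groups (difference 0.43 and 0.54). Of 36 mRNA decapping and decay genes, 1 passed above 0 with 12 libraries, TOB2 (0.33), which recruits the deadenylase, and 10 above and 1 below with 11 (2.78% and 30.6%). Of 25 interferon and double-stranded RNA response genes, 0 passed with 12 libraries and 3 above 0 with 11, a share of 12% that is near that of all genes.

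The 10 luminal markers gave 0 calls with 12 libraries and 3 below 0 with 11 (30%). Secreted matrix and protease genes gave 6 calls below 0 of 28 with 12 libraries, and 11 below and 1 above with 11 (21.4% and 42.9%, median -0.125 and -0.17). COL12A1, a fibril-associated collagen, differed by -0.76 and -0.62, and LAMC1, a laminin chain, by -0.42 and -0.35. Integrins and actin-linked genes gave 3 calls above and 1 below of 33 with 12 libraries, and 4 and 6 with 11 (12.1% and 30.3%). ITGA5, the fibronectin receptor subunit, was called above 0 (0.48 and 0.49). Neuronal and secretory granule genes gave 2 calls below 0 of 23 with 12 libraries, and 5 above and 8 below with 11 (8.7% and 56.5%). CHGB, a granin of secretory granules, differed by -0.57 and -0.47. ID and BMP/SMAD response genes gave 1 call in each direction of 20 with 12 libraries and 4 in each with 11 (10% and 40%). Immediate early, AP-1 and ERK feedback genes gave 1 call above 0 of 34 with 12 libraries, the apoptosis inhibitor MCL1 (0.20), and 1 above and 9 below with 11 (2.94% and 29.4%). Most of these 34 members lay below 0, 29 with 12 libraries and 27 with 11 (median -0.161 and -0.162). Over all genes tested 10118 of 19594 and 9559 of 20018 did.

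ETS family factors gave 0 of 19 with 12 libraries, and 3 above and 5 below of 20 with 11 (40%). ETS2 passed with 11 libraries alone (-0.43, adjusted p = 0.0726 and -0.35, adjusted p = 0.00263). KRAB zinc fingers gave 1 call below 0 of 46 with 12 libraries, ZNF616 (-0.55), and 3 above and 10 below with 11 (2.17% and 28.3%), and their median moved from -0.243 to -0.077. Replication-dependent histones with LSM11 gave 1 call in each direction of 18 with 12 libraries, and 1 above and 2 below of 19 with 11 (11.1% and 15.8%). LSM11, which takes part in histone mRNA processing, rose from 26.0, 23.4 and 26.9 to 38.9, 38.5 and 36.5 CPM with ZNF783 siRNA (difference 0.61 and 0.53). Circadian clock genes gave 2 calls above and 1 below of 18 with 12 libraries, and 6 and 1 with 11 (16.7% and 38.9%). Of the clock repressors, PER3 differed by 0.87 and 0.91 and CRY2 by 0.50 and 0.46, while CRY1 was called below 0 (-0.35 and -0.32). The leukocyte, endothelial and fibroblast markers gave 0 of 10 tested with 12 libraries and 1 below 0, LUM, with 11 (10%).

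**Figure D4:**
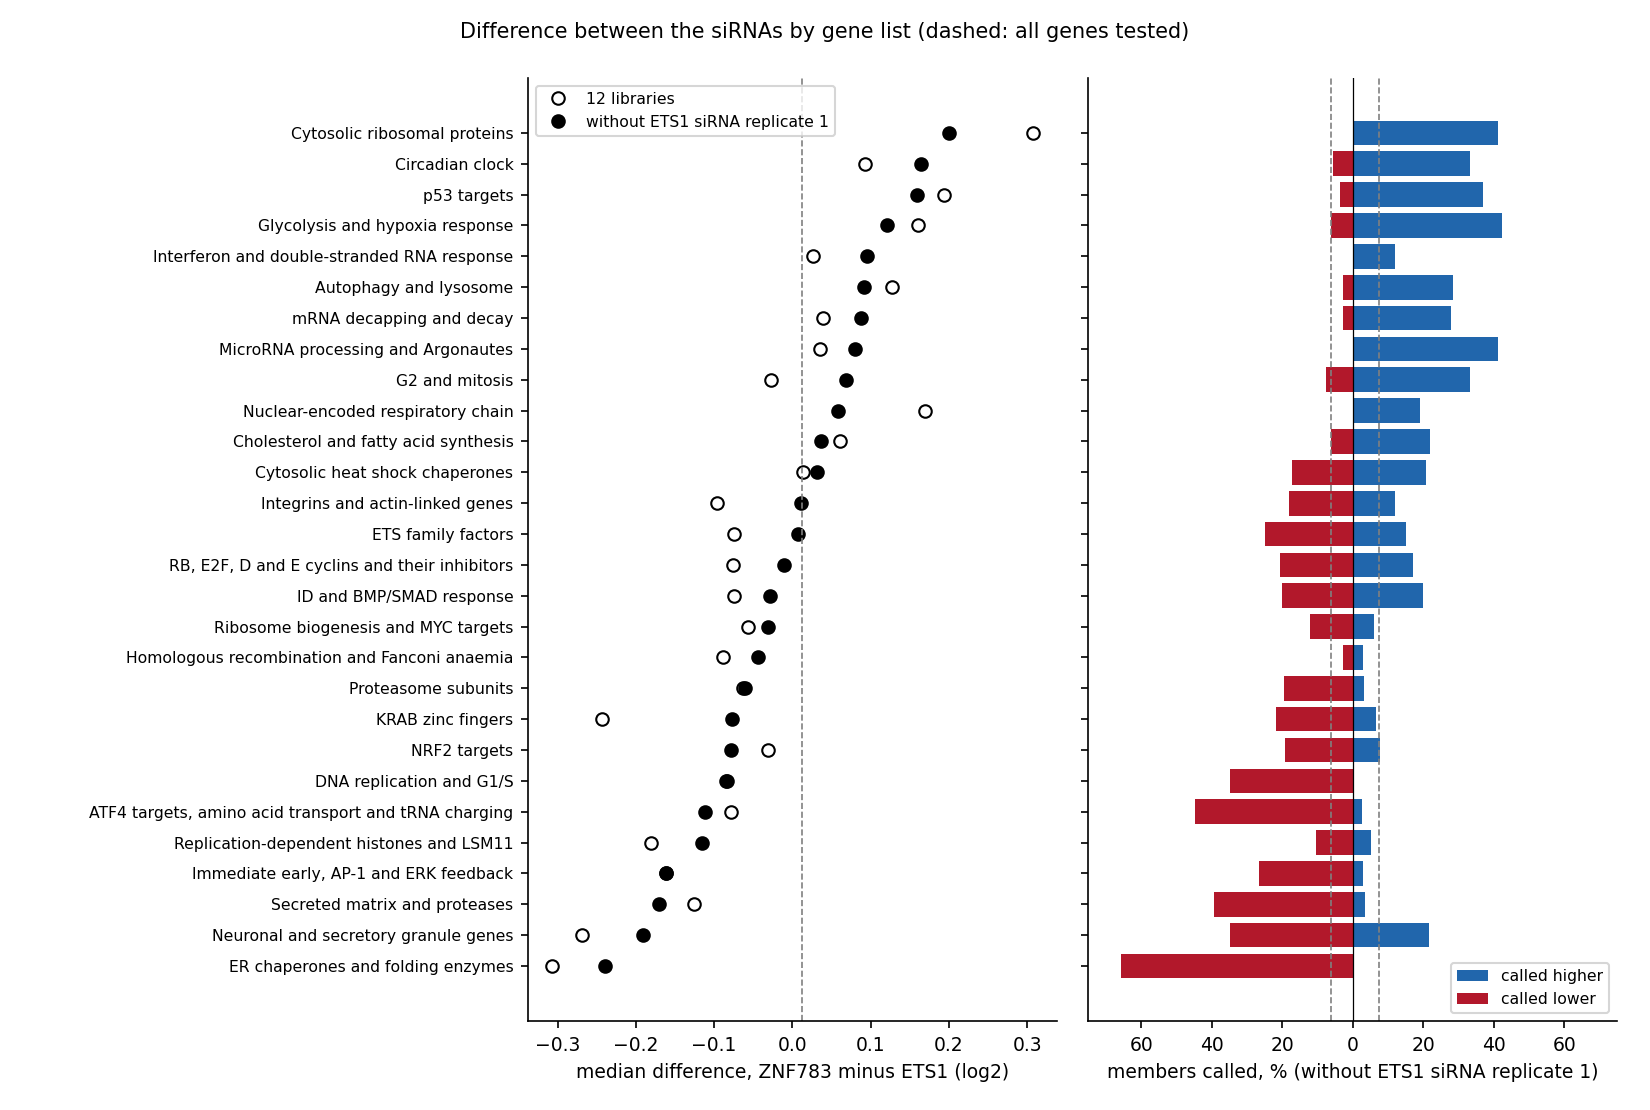
Left, the median log2 difference of each gene list with 12 libraries (open) and without ETS1 siRNA replicate 1 (filled); right, the percentage of its tested members called above 0 (blue) or below 0 (red) in the 11-library fit, with dashed lines for all genes tested. ER chaperones lie lowest and ribosomal proteins highest on the left.

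GC content separated the 2 fits. With 12 libraries the median difference rose from -0.104 for genes of 34% to 38% GC to 0.051 for those of 58% to 62%, and Spearman's rho across 15693 genes was 0.224. Without ETS1 siRNA replicate 1 the medians of all bins lay between -0.016 and 0.03, and rho was -0.005. Both effects fell with GC content (rho -0.412 for ZNF783 siRNA and -0.441 for ETS1 siRNA with 11 libraries, the latter -0.561 with 12). The ribosomal protein, respiratory chain and KRAB zinc finger medians given above all moved toward 0 when this library was left out, to 0.2, 0.058 and -0.077. With all 12 libraries and a correction for GC content and length they were 0.281, 0.153 and -0.161. The median GC content of the ribosomal protein and respiratory chain lists was 49.0% and 48.2%, near the 48.4% of all genes. That of the KRAB zinc fingers was 38.8%.

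**Figure D5:**
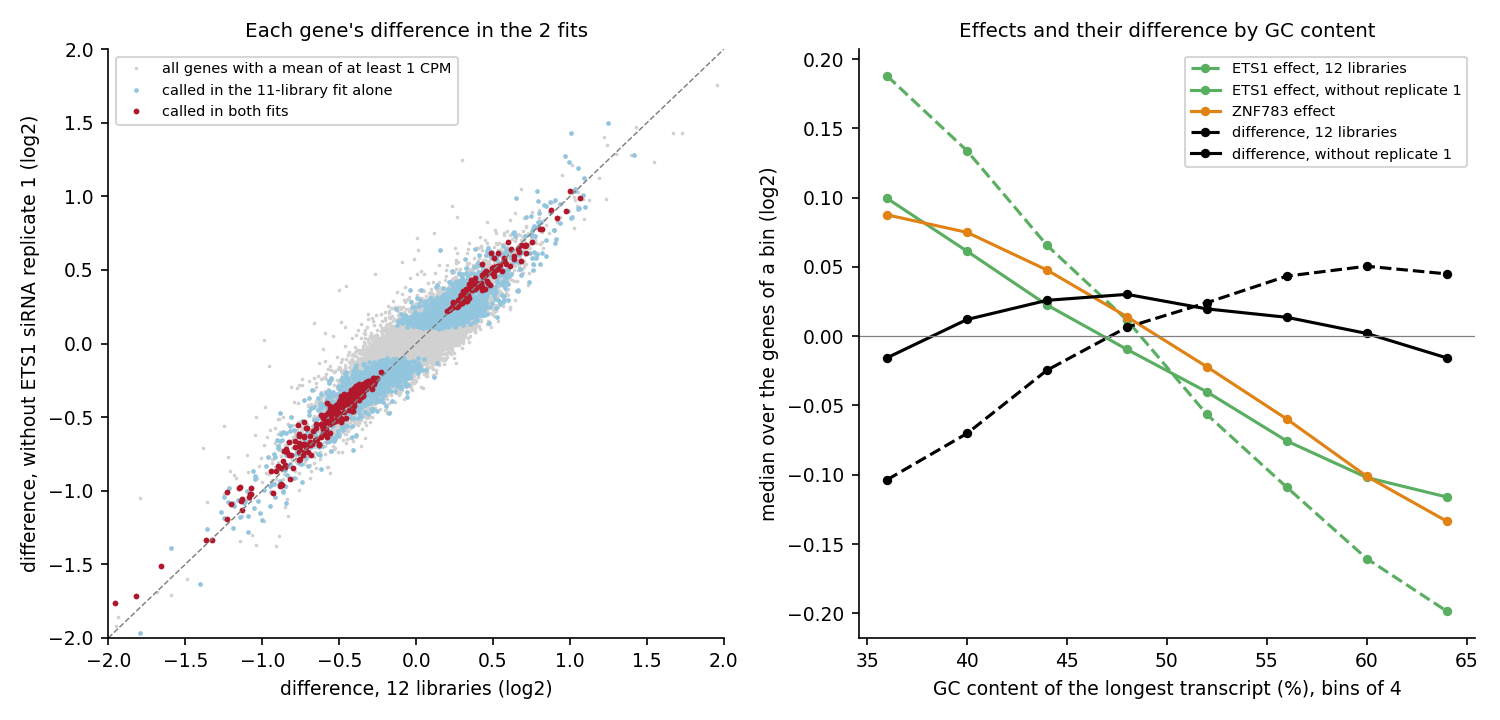
Left, the log2 difference of each gene with 12 libraries (x axis) and without ETS1 siRNA replicate 1 (y axis), with the 328 genes called in both fits in red and those called in the 11-library fit alone in light blue. Right, the median log2 effect or difference by GC content of the longest transcript, in bins of 4 percentage points; the difference slopes upward with 12 libraries and stays between -0.016 and 0.03 without that library.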

How the data were processed

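The authors deposited raw counts of reads for every gene, without normalization. Per the file headers the authors counted paired-end alignments over exons with featureCounts v2.0.1 against an Ensembl GRCh38 annotation, release 107, with no strand option, although the labels' protocols give a directional kit. The alignment files' names end in hisat and no version of the aligner is recorded in the headers or labels. The submitters' processing notes name hg38. The 2 count tables were joined by gene identifier, and 61757 of 61860 identifiers (99.8%) matched a symbol. Unmapped value columns numbered 0.

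All libraries were fitted together with edgeR 4.0.16 in R 4.3.3: default expression filter by group, TMM scaling, a robust quasi-likelihood F test with the group as the only term, and Benjamini-Hochberg adjustment over all genes tested, with calls at an adjusted p below 0.05. Gene levels are in TMM-scaled CPM, except that the floor and the summed marker levels use library size. Standard errors were derived from the F statistic. The code was checked on simulated counts. Floors cover counting error only, since PCR reads are not independent molecules. Gene places and GC content come from GENCODE release 29, 1-based.

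The genes compared and the gene lists were chosen with earlier results of these data known, so list counts are descriptions. Named genes were the 10 highest and 10 lowest differences called in both fits with a mean of at least 10 CPM (without symbols of clones, pseudogenes, antisense, LINC and LOC entries), up to 6 in each of 4 effect patterns, members of the lists, and a few genes set by the study's topic. For the patterns the rule did not name the fit for the ranking; the 11-library difference was used, a choice made after the files were seen. Some genes and lists that the rule covers are not reported here. Alternatives were other scalings, filters and tools (limma 3.58.1, DESeq2 1.42.0), a GC and length correction, the replicate number as a block, stricter thresholds and leaving out each library.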

Additional observations from a re-analysis of the deposited data

Results flagged for a closer look

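The difference between the effects of the 2 siRNAs was itself tested, so the genes it called are those whose response to ZNF783 siRNA differed from that to ETS1 siRNA, 330 with 12 libraries and 2735 without ETS1 siRNA replicate 1. The genes picked out by size and effect pattern among those called in both fits are given here with their 12-library log2 differences. Below 0 were DIO2 (-1.82), TPM4 (-1.14), BCHE (-0.94), NES (-0.89), SEMA6B (-0.88), THBS1 (-0.88), MUC13 (-0.86), NETO1 (-0.85), MAPK4 (-0.81), HABP4 (-0.80), TUBA4A (-0.79), MIR924HG (-0.78), CYP1B1 (-0.76), HSPA5 (-0.76), AGR2 (-0.74), PCDH10 (-0.73), MFSD2A (-0.70), MISP (-0.68), SLC7A11 (-0.65) and MESD (-0.63). Above 0 were ARL6IP1 (1.07), STAT5A (0.92), NRN1 (0.82), ZBTB34 (0.80), CROT (0.75), PAK6 (0.71), PRSS8 (0.71), REXO5 (0.71), DHRS2 (0.68), SPATA18 (0.62), ARL2 (0.57) and RRAS2 (0.50).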

How the results depend on the processing

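The count of genes that differed depended on the processing more with 12 libraries than with 11. With 12 libraries (330 genes) it was 978 with no expression filter, 671 with DESeq2, 2409 with limma-voom and quality weights, which weighted ETS1 siRNA replicate 1 at 0.0624 and the others at 0.951 to 1.57, 723 with a GC and length correction, 249 with that correction and the replicate block, 100 at an adjusted p below 0.01 and 23 at 2-fold or more. Leaving out 1 library gave 140 to 2735, the highest without ETS1 siRNA replicate 1 and the lowest without ETS1 control replicate 1. Without ETS1 siRNA replicate 1 (2735 genes) the count was 1863 with DESeq2, 1623 at an adjusted p below 0.01 and 107 at 2-fold or more. Leaving out a second library gave 1819 to 2702, the lowest without ETS1 siRNA replicate 2, where the lone library of that group is assumed to vary like the others. A filter of 1 CPM gave 2745, with 1234 above 0 and 1511 below. Correlations of same-numbered deviations from the group mean were -0.245 to 0.305 in the ETS1 experiment and -0.03 to 0 in the ZNF783 experiment. Between other numbers they were -0.328 to 0.322 and -0.018 to 0.029. Deviations within 3 libraries sum to 0, so these values cannot decide whether the replicate numbers pair the samples. A replicate block gave 54 genes with 12 libraries and 2550 with 11. Of the 32 genes picked out by size and pattern, 18 kept their call under all 23 alternatives to the 12-library fit. Under all 22 alternatives to the 11-library fit 32 kept it, and 0 reversed in either. These genes were chosen from those called in both fits, and omitting ETS1 siRNA replicate 1 is itself among the 23. Keeping the call was thus partly fixed by the choice. Most alternatives for single genes and list medians were added after the data were seen. Reversed values concerned CDK4, CDK6, RB1 and ZNF783, called in neither fit. Leaving out 1 library at a time, the 12-library differences of CDK4, RB1 and ZNF783 ran from -0.03071 to 0.2869, from -0.1863 to 0.08832 and from -0.0843 to 0.1487, and the 11-library difference of CDK6 from -0.06055 to 0.0218. From the 12-library values, quality weights reversed CDK4 (-0.04413), RB1 (0.05921) and ZNF783 (-0.09698), omitting ETS1 siRNA replicate 1 reversed the same 3 genes, and the GC correction reversed RB1 (0.0173, and 0.02134 with the block). From the 11-library values, CDK6 reversed without ETS1 siRNA replicate 2 or ETS1 control replicate 3 (0.002615). The causes were not tested. ETS1 itself had 0 to 3 counts in each library, controls included, at totals of 13518177 to 48996691 counts, so its knockdown stayed unmeasured.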
